A study of Mus musculus with 8 samples.

Results

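A group of 9 transcriptional regulators of the sensory neuron lineage were followed in RNA-seq of developing mouse sympathetic ganglia, namely *Neurog1*, *Neurog2*, *Neurod1*, *Neurod4*, *Pou4f1*, *Prrxl1*, *Runx1*, *Runx3* and *Eya1*. They were chosen by symbol, with earlier results of these data known. The 9 genes were looked up among 13506 rows of an E11.5 table and 13413 rows of an E14.5 table. Of the 9, 6 had a row at E11.5 and 3 had a row at E14.5. Each table lists genes that reached 1 FPKM (fragment counts scaled to transcript length and to the size of the library) in at least 1 genotype, so a gene without a row was taken as under 1 FPKM in both genotypes of that stage.

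The study asked what the LIM homeodomain factor ISL1 does in sympathetic neurons early and later in development. At E11.5, *Isl1* CKO ganglia (*Wnt1-Cre;Isl1* f/f, given as Isl1-/- in the labels) were set against control ganglia (*Wnt1-Cre;Isl1* +/+, given as wild type), and both genotypes carried Wnt1-Cre and a Rosa26-tdTomato reporter. Wnt1-Cre acts in the neural crest lineage, so cells of other origin in a dissected ganglion kept *Isl1*. At E14.5, *Isl1* hypomorphic ganglia (*Isl1* f-neo/f-neo, given as Isl1 mutation), which carry an allele of reduced *Isl1* expression in all tissues, were set against wildtype ganglia. There were 8 libraries, 2 in each of 4 groups, and each was made from ganglia pooled from about 10 embryos of 1 genotype. In the deposited tables, both libraries of a genotype were merged into 1 FPKM value for each gene. The depth behind a value and the variation among libraries are not known from them, no difference below carries an error or a test, and "higher" and "lower" compare the authors' combined values.

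Neurons of the dorsal root ganglia and of the sympathetic ganglia both arise from the trunk neural crest, but through different proneural factors. In the sensory lineage the basic helix-loop-helix (bHLH) factors NEUROG2 and NEUROG1 start neurogenesis and switch on *Neurod1* and *Neurod4*. The homeodomain factors POU4F1 (BRN3A) and ISL1 then close this early programme and open the sensory one, after which RUNX3 and RUNX1 direct proprioceptive and nociceptive neurons and PRRXL1 (DRG11) acts in nociceptive circuits. EYA1 is a phosphatase and a coactivator of sine oculis homeobox factors in placodes, sensory ganglia, kidney and muscle.

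The tissue label was checked against defining markers. All 8 sympathetic markers had rows, between 75.9 FPKM (*Slc18a2*, the vesicular monoamine transporter) and 543 FPKM (*Dbh*, dopamine beta-hydroxylase) in E11.5 control ganglia and between 91.8 (*Gata3*) and 608 FPKM (*Dbh*) in E14.5 wildtype ganglia. Of 15 effector genes of sensory neurons, 10 had no row at E11.5, among them *Avil*, *Scn10a*, *Trpa1*, *Mrgprd*, *Tac1* and *Pvalb*. The highest in E11.5 control ganglia was *Spp1* at 6.40 FPKM. Whether sensory neurons express these effector genes as early as E11.5 was not checked. Their missing rows therefore cannot show that sensory neurons were absent from the ganglia. For the targeted gene, *Isl1*, the control and CKO values were 133 and 40.0 FPKM, and the wildtype and hypomorphic values 162 and 83.1 FPKM. At E11.5 the CKO column summed to more than the control column, by 0.37 on the log2 scale, and 13 erythroid genes, of which 11 had rows, took 11.2% of it against 2.29% of the control column. Rescaling both columns to the same sum moved the median log2 ratio of all genes from 0.05 to -0.32, and doing so without the erythroid genes moved it to -0.18. The share of higher genes among those at least 1.5-fold apart went from 59.4% to 23.5% and to 35.2%. It was 53.9% after centring on the median. Of 13506 rows, 2552 were at least 1.5-fold higher and 1746 lower as deposited. After rescaling to the same sum, 1262 were higher and 4108 lower. Ratios and counts at E11.5 are given as deposited, and where rescaling to the same sum moved a count or carried a named gene across the 1.5-fold line, this is stated beside it.

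The sequences before the start sites of the 4 members that were higher in CKO ganglia at E11.5 are shown as a description of these genes. Of them, *Neurog2*, *Neurod4* and *Pou4f1* had a row only through the CKO value and so had to be higher. *Neurod1* was inside the 1.5-fold line after rescaling to the same sum. The lineage of these genes is driven by basic helix-loop-helix and homeodomain factors. The RefSeq promoter table held 8 of the 9 members. Its sequences, from build GRCm38.p6, were matched exactly and once each to the same chromosome of mm9 (NCBI37), the build named in the study's methods, and positions are given in mm9. Each run reads 5′ to 3′ on the strand of the gene and ends at or before the annotated start. Capitals mark every E-box (CANNTG, the motif of bHLH dimers) and every TAAT on either strand (the core read by homeodomain proteins). For *Neurod1* the run stops where an annotated transcript of its neighbour *Cerkl* begins, and it overlaps the antisense lincRNA gene *Gm17325*.
*Neurog2*, chr3:127335804-127336053, plus strand: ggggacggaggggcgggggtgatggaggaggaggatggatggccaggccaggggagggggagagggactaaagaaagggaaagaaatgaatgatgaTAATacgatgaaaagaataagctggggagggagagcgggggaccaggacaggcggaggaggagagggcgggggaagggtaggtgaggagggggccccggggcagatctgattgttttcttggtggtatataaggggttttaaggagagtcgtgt
*Neurod1*, chr2:79296943-79297043, minus strand: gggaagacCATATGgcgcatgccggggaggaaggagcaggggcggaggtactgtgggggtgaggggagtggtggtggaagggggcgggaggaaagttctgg
*Neurod4*, chr10:129717311-129717560, minus strand: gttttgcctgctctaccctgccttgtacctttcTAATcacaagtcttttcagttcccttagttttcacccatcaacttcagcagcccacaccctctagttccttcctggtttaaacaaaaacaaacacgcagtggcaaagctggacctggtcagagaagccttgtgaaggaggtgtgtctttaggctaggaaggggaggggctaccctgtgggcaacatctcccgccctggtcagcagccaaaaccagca
*Pou4f1*, chr14:104867217-104867466, minus strand: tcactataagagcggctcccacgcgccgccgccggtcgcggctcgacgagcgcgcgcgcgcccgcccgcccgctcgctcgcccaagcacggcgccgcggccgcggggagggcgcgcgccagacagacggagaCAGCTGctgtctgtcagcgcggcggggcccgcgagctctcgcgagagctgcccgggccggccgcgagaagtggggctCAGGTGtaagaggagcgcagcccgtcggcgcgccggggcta

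Over the full 250 bases before the RefSeq start, *Pou4f1* held 2 E-boxes (CAGCTG and CAGGTG), *Neurod1* held 1 (CATATG), and *Neurog2* and *Neurod4* held 0. For *Neurod1* these bases (chr2:79296794-79297043) run into the annotated extents of *Neurod1* and *Cerkl*, and that part is not printed. Among all 32851 RefSeq promoters, 66.2% held an E-box in the same 250 bases. The E-box form CAGATG, or CATCTG on the other strand, which is also a CANNTG match, was in 0 of these 4 promoters and in 14.4% of all promoters. TAAT was found once before *Neurog2* and once before *Neurod4*, not before *Neurod1* or *Pou4f1*, and in 54.9% of all promoters. These counts describe the letters only.

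The proneural bHLH genes had low levels in control ganglia. At E11.5, *Neurog2* (mm9 chromosome 3, 127336054 to 127338549) was at 0.212 FPKM in control ganglia and at 2.70 FPKM in *Isl1* CKO ganglia. This was a log2 ratio of 3.17, computed here and below on FPKM + 0.1, and the largest among the 6 members with a row. *Neurog2* had no row at E14.5. *Neurog1* (chromosome 13, 56351866 to 56353524), its paralogue, had no row at either stage.

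*Neurod4* (chromosome 10, 129705209 to 129717296), a bHLH gene downstream of the neurogenins, was at 0.426 FPKM in control ganglia and at 1.35 FPKM in CKO ganglia (log2 ratio 1.46). It had no row at E14.5. *Neurod1* (chromosome 2, 79292678 to 79296908), the related bHLH gene, was the only member of this role with a row at both stages. Its E11.5 values were 1.66 FPKM in control ganglia and 3.05 FPKM in CKO ganglia (log2 ratio 0.84). Its E14.5 values were 1.3 FPKM in wildtype ganglia and 2.48 FPKM in hypomorphic ganglia (log2 ratio 0.88). Both mutant values were above both values of the control and wildtype ganglia, although the tables were normalised separately. With the columns rescaled to the same sum, its E11.5 log2 ratio was 0.48, inside the 1.5-fold line. *Neurod1* shares 154 of its 2729 exon bases (5.64%) with the antisense gene *Gm17325*, which had no row at either stage. The part of *Gm17325* in the *Neurod1* values was not tested. *Neurod1* also lies within the annotated extent of *Cerkl* on the same strand and shares 201 of its 2729 exon bases (7.37%) with it. *Cerkl* was at 1.16 and 2.24 FPKM in control and CKO ganglia (log2 ratio 0.89) and had no row at E14.5, so shared reads could enter the E11.5 value of either gene, and their part in it was not tested.

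Among the homeodomain genes, *Pou4f1* (chromosome 14, 104862737 to 104867216) was at 0.676 FPKM in control ganglia and at 1.57 FPKM in CKO ganglia at E11.5 (log2 ratio 1.10) and had no row at E14.5. *Prrxl1* (chromosome 14, 33412594 to 33462432) was the second most abundant member. Its values were 10.1 and 7.98 FPKM in control and CKO ganglia (log2 ratio -0.33), and 4.13 and 3.01 FPKM in wildtype and hypomorphic ganglia (log2 ratio -0.44). It was thus lower in the mutant at both stages, each time by less than 1.5-fold in the values as deposited. Rescaled to the same sum, its E11.5 log2 ratio was -0.70, past the 1.5-fold line, as were 4108 of 13506 rows on the lower side.

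The RUNX genes had no row. *Runx1* (chromosome 16, 92601712 to 92826311) and *Runx3* (chromosome 4, 134676567 to 134733905), like *Neurog1*, were missing from both tables and were taken as under 1 FPKM in all 4 combined values. A missing row is an indirect reading of level. At E11.5, *Hba-a1* and *Hbb-b1* also had no row while their near-identical copies *Hba-a2* and *Hbb-b2* had 2720 and 5489 FPKM in CKO ganglia, and *Hbb-y* was listed at 0 in CKO and at 7552 FPKM in control ganglia. Their common binding partner *Cbfb* was abundant, with 88.3 and 90.5 FPKM at E11.5 and 44.1 and 55.6 FPKM at E14.5 in control or wildtype and mutant ganglia in turn.

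*Eya1* (chromosome 1, 14159035 to 14300281) stood apart from the other members by its level. Its E11.5 level was 109 FPKM in control ganglia and 54.6 FPKM in CKO ganglia (log2 ratio -0.997). Its control value exceeded that of 94.7% of rows, and its CKO value that of 88.2%. At E14.5 its level was 100.1 FPKM in wildtype ganglia and 100.3 FPKM in hypomorphic ganglia, a log2 ratio of 0.002. It was lower in CKO ganglia under every scaling tried, with log2 ratios of -1.37 and -1.23 after rescaling to the same sum with and without the erythroid genes. The antisense gene annotated across it shared 0 exon bases with it. In pooled ganglia, fewer cells that express a gene and less RNA per cell cannot be told apart.

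**Figure D1:**
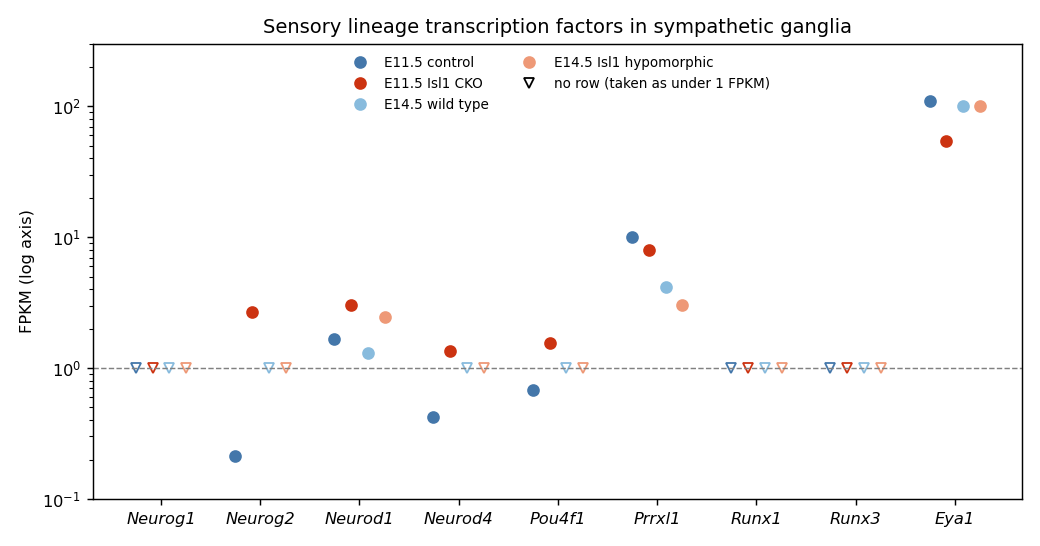
FPKM of the 9 members (log axis) in the 4 groups, 1 point per authors' combined value; open triangles at 1 FPKM stand for genes without a row, which were taken as under that level. *Eya1* lies near 100 FPKM in 3 groups and at 54.6 in E11.5 CKO ganglia, *Prrxl1* between 3.01 and 10.1, and the other members at or under 3.05.

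Ranked among all rows of a table, *Neurog2*, *Neurod1*, *Neurod4* and *Pou4f1* stayed near the bottom also where they were higher. In E11.5 CKO ganglia, *Neurog2* exceeded 16.2% of rows, *Neurod1* 18.2%, *Pou4f1* 8.07% and *Neurod4* 5.81%. *Prrxl1* exceeded 46.6% of rows in control and 40.0% in CKO ganglia, and 21.2% and 15.1% at E14.5 in wildtype and hypomorphic ganglia. At E14.5, *Neurod1* exceeded 4.85% and 11.9% of rows.

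At E11.5, 4 of the 6 members with a row were at least 1.5-fold higher in CKO ganglia on the FPKM + 0.1 scale (*Neurog2*, *Neurod1*, *Neurod4*, *Pou4f1*) and 1 was at least 1.5-fold lower (*Eya1*), and their median log2 ratio was 0.97. After rescaling to the same sum, 3 were higher, without *Neurod1*, and 2 lower, with *Prrxl1*. Over all 13506 rows, 1262 were higher and 4108 lower after that rescaling. As deposited, 18.9% of them were at least 1.5-fold higher and 12.9% at least 1.5-fold lower, with a median of 0.05. The count of higher members cannot be read against that share, because *Neurog2*, *Neurod4* and *Pou4f1* were under 1 FPKM in control ganglia and have a row only through the CKO value. A gene listed in that way has to be higher in the mutant. Of the 738 rows with a control value under 1 FPKM, 84.7% were at least 1.5-fold higher, with a median log2 ratio of 1.25. Within those rows *Neurog2* exceeded 85.1%, *Neurod4* 58.5% and *Pou4f1* 43.0%. *Neurod1* entered the table by both values, and of the 3149 rows with a control value from 1 to under 5 FPKM, 26.7% were at least 1.5-fold higher. Of the 9619 rows with a control value of 5 FPKM or more, 13.8% were at least 1.5-fold lower, as *Eya1* was, and 4.92% had a lower ratio than *Eya1*.

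At E14.5, 1 of the 3 members with a row was at least 1.5-fold higher in hypomorphic ganglia (*Neurod1*) and 0 were at least 1.5-fold lower, with a median log2 ratio of 0.002. Over all 13413 rows, 2.89% were at least 1.5-fold higher and 2.12% at least 1.5-fold lower, and the median was 0.003. Of the 3049 rows with a wildtype value from 1 to under 5 FPKM, 3.77% were at least 1.5-fold higher. No replicate check was possible for *Neurod1* at either stage.

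**Figure D2:**
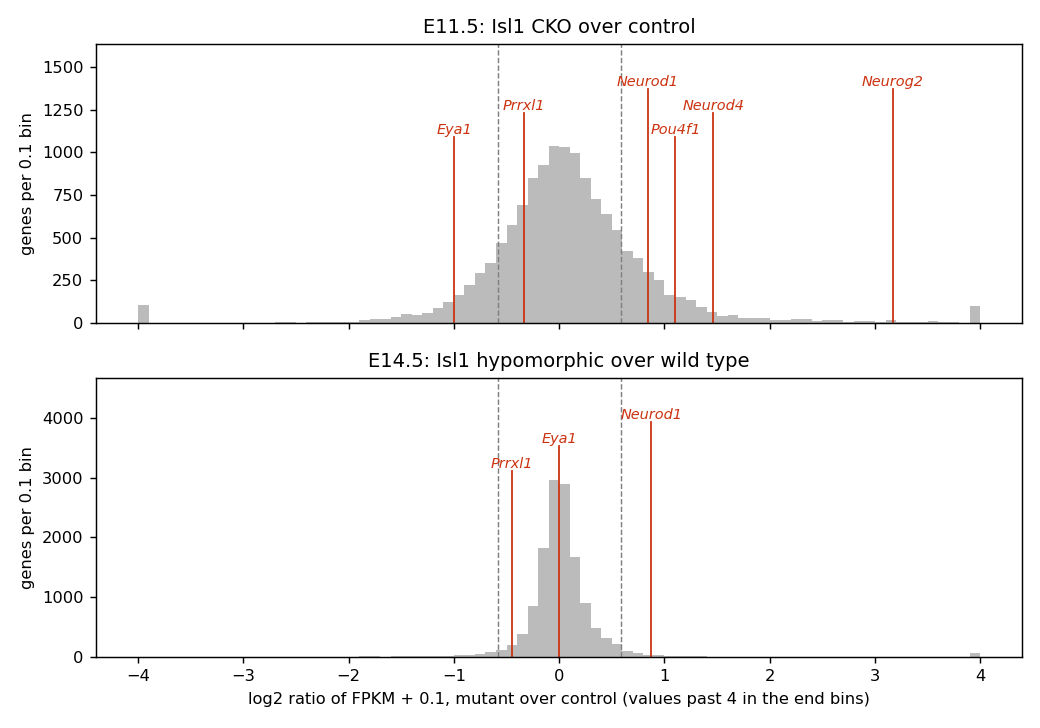
Number of genes by log2 ratio of FPKM + 0.1, mutant over control, at E11.5 (top) and E14.5 (bottom), with the members as red lines and 1.5-fold as dashed lines. At E11.5, *Neurog2*, *Neurod4*, *Pou4f1* and *Neurod1* lie to the right of the upper line and *Eya1* to the left of the lower one, and at E14.5 *Neurod1* alone among the 3 members lies outside the lines.

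Between control ganglia at E11.5 and wildtype ganglia at E14.5, whose tables were normalised separately and whose alleles differ, the values can only be set side by side. *Eya1* had 109 and 100.1 FPKM, a log2 difference of -0.12. *Neurod1* had 1.66 and 1.3 FPKM (-0.32), and *Prrxl1* had 10.1 and 4.13 FPKM (-1.27). *Neurog2*, *Neurod4* and *Pou4f1* were under 1 FPKM in E11.5 control ganglia and had no row at E14.5. Control and wildtype ganglia thus showed no difference across that limit for these genes. Only their E11.5 CKO values were above 1 FPKM.

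The relatives and binding partners of the members differed by family. The list held 24 symbols, of which 17 had rows at E11.5, with 2 at least 1.5-fold higher and 2 at least 1.5-fold lower (18.9% and 12.9% of all rows) and a median log2 ratio of -0.04. After rescaling to the same sum, 1 was higher (*Eya2*) and 3 were lower, and the median was -0.41. *Cbfa2t2* at -0.80 joined *Eya4* and *Runx1t1* as lower. Over all 13506 rows, 1262 were then higher and 4108 lower, with a median of -0.32. The other relatives of the bHLH and POU members (*Neurog3*, *Neurod2*, *Neurod6*, *Atoh1*, *Pou4f2*, *Pou4f3*) had no row at either stage, nor did *Drgx*, a second symbol of *Prrxl1*. The E proteins, which pair with proneural factors, were abundant and, as deposited, close to even. *Tcf3* had 57.0 and 55.2 FPKM in control and CKO ganglia, *Tcf4* 43.2 and 39.1, and *Tcf12* 56.5 and 49.2.

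The EYA genes split at E11.5. *Eya4* was at 18.0 and 8.89 FPKM in control and CKO ganglia (log2 ratio -1.01), close to the ratio of *Eya1*, whereas *Eya3* had 13.9 and 12.8 FPKM (-0.12) and *Eya2* had 1.17 and 3.39 FPKM (1.46). Summed over the 4 genes, EYA expression came to 142 and 79.7 FPKM in control and CKO ganglia, of which *Eya1* made up 76.8% and 68.5%. At E14.5 the sums were 129 and 128 FPKM, and the log2 ratios of *Eya4*, *Eya3* and *Eya2* were -0.12, -0.04 and 0.18. Their partners, the sine oculis homeobox genes, were low and were higher in CKO ganglia by less than 1.5-fold, about as much as the column sums differed. *Six4* had 1.59 and 2.29 FPKM (log2 ratio 0.50), *Six2* 2.21 and 2.94, and *Six5* 4.51 and 6.07. *Dach1*, a corepressor in the same network, had 5.13 and 4.97 FPKM.

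Among RUNX partners, *Runx2*, the remaining paralogue, had 1.61 and 2.34 FPKM at E11.5 (log2 ratio 0.51) and no row at E14.5. The corepressor gene *Runx1t1* had 14.4 and 8.30 FPKM at E11.5 (-0.78), and 10.3 and 14.1 FPKM at E14.5 (0.44). Its relative *Cbfa2t3* was low at both stages, with 1.09 and 1.70 FPKM at E11.5 (0.60, or 0.25 after rescaling to the same sum) and 1.86 and 2.92 FPKM at E14.5 (0.62).

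**Figure D3:**
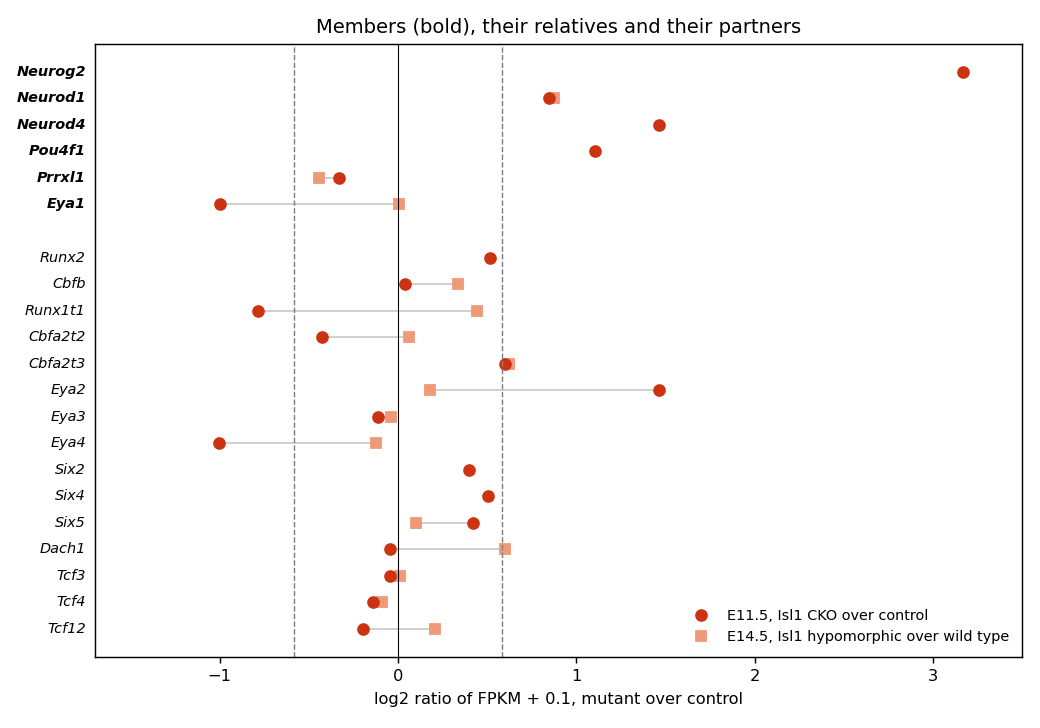
Log2 ratios of FPKM + 0.1, mutant over control, at E11.5 (circles) and E14.5 (squares) for the members with an E11.5 row (bold) and for 15 of their relatives and partners, with 1.5-fold as dashed lines; a gene without a square had no E14.5 row. *Eya1* and *Eya4* lie together near -1 at E11.5, and the E proteins near 0.

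Other transcription factors of sensory ganglia, many of which sympathetic neurons also express, were taken as a list of 28 genes, of which 23 had rows at E11.5. At E11.5, 7 were at least 1.5-fold higher and 10, with the targeted *Isl1* among them, at least 1.5-fold lower in CKO ganglia, beside 18.9% and 12.9% of all rows, and the median log2 ratio was -0.43. After rescaling to the same sum, 1262 of all 13506 rows were higher and 4108 lower. Of the list, 3 were then higher and 12 lower, and the median was -0.78. The 3 that were higher under both scalings were under 1 FPKM in control ganglia, so they had a row only through the CKO value and had to be higher. *Nhlh1*, a bHLH gene of newborn neurons, had 0.473 and 2.0 FPKM (log2 ratio 1.87), *Prdm12*, which acts in the nociceptive lineage, had 0.435 and 1.63 FPKM (1.69), and *Isl2*, the paralogue of *Isl1*, had 0.373 and 1.2 FPKM (1.46). Lower genes ranged widely in level. *Hmx1*, a homeobox gene, had the lowest ratio, with 4.88 and 0.774 FPKM (-2.51). With a CKO value under 1 FPKM, it had a row only through its control value and so had to be lower. Of the 326 rows with a CKO value under 1 FPKM, 84.4% were at least 1.5-fold lower, with a median log2 ratio of -1.48. *Insm1* had 70.9 and 29.8 FPKM (-1.25), *Ebf1* 35.9 and 16.8 (-1.09), *Sox4* 136 and 82.2 (-0.73), *Klf7* 17.2 and 9.62 (-0.83) and *Myt1* 34.4 and 18.6 (-0.88). At E14.5, 21 of the 28 had rows, 3 were at least 1.5-fold higher and 3, again with *Isl1*, at least 1.5-fold lower (2.89% and 2.12% of all rows), and the median was 0.12. *Hmx1* had 366 and 108 FPKM (-1.76). *Prdm12* was then at 1.44 and 2.14 FPKM in wildtype and hypomorphic ganglia (0.54), and *Nhlh1* and *Isl2* had no row.

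Effector genes of sensory neurons gave few values. Of 15 genes, 5 had rows at E11.5, of which 3 were at least 1.5-fold higher in CKO ganglia, beside 18.9% of all rows. After rescaling to the same sum, *P2rx3* alone was higher and *Calca* was at least 1.5-fold lower. Over all 13506 rows, 1262 were then higher and 4108 lower. The list median went from 0.64 to 0.27. *P2rx3* was under 1 FPKM in control ganglia, has a row only through its CKO value and so had to be higher. *P2rx3*, the ATP-gated channel subunit of nociceptors, had 0.700 and 1.61 FPKM (log2 ratio 1.10), *Piezo2*, the mechanically gated channel, 3.70 and 5.98 FPKM (0.68, rescaled 0.31), and *Spp1*, which other cell types also express, 6.40 and 10.00 FPKM (0.64, rescaled 0.27). *Calca*, which encodes the peptide CGRP, had 2.07 and 1.40 FPKM (-0.53, rescaled -0.88). At E14.5 the same number of genes had rows, with a median log2 ratio of -0.05. Of these, 1 was at least 1.5-fold higher and 1 lower, beside 2.89% and 2.12% of all rows. The higher one, *Trpv1*, the capsaicin receptor, was at 0.559 and 1.01 FPKM in wildtype and hypomorphic ganglia. It had a row only through its hypomorphic value and so had to be higher. The lower one, *P2rx3*, had 1.88 and 1.18 FPKM (-0.63).

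Markers of other cell types moved at E11.5 beside the members. Their counts stand beside 18.9% of all rows at least 1.5-fold higher and 12.9% at least 1.5-fold lower as deposited. After rescaling to the same sum, 1262 of 13506 rows were higher and 4108 lower. As deposited, all 8 neural crest and glial genes were at least 1.5-fold higher in CKO ganglia, and after rescaling to the same sum 6 were, with *Erbb3* at 0.34 among those inside the line. The median log2 ratio was 1.17 as deposited and 0.80 rescaled, and the summed level of the list was 266 and 591 FPKM in control and CKO ganglia. Of 17 genes of the spinal cord and neural tube, a tissue that also expresses neurogenins, 2 had rows, *Nkx6-2* and *Irx3*, at 0.486 and 0.438 FPKM in control and both at 1.07 FPKM in CKO ganglia, so that both had to be higher. The defining genes *Olig2*, *Pax6*, *Nkx2-2*, *Mnx1* and *Lhx3* had no row at either stage. All 8 mesenchymal genes were higher, 5 of them by at least 1.5-fold (median 0.77, sums 579 and 1008 FPKM), but after rescaling only *Dcn* was past 1.5-fold and the median was 0.40. All 5 blood and macrophage genes with a row were at least 1.5-fold higher under both scalings (sums 13.1 and 33.1 FPKM, with *Ptprc* and *Itgam* without a row). Among them, *Fcgr1* at 0.408 and 1.11 FPKM had a row only through its CKO value and so had to be higher. Of the 8 sympathetic genes, 3 were at least 1.5-fold lower (among them *Hand2* and *Gata3*) and the sum of the list was 1756 and 1474 FPKM in control and CKO ganglia. After rescaling 5 were, with *Phox2a* at -0.74 and *Th* at -0.71 past the line, and the list median went from -0.35 to -0.73. Of tissues in which *Eya1* also acts, 3 of 7 kidney and mesonephros genes and 5 of 6 skeletal muscle genes had rows, with medians of 0.42 and 0.57, or 0.05 and 0.20 rescaled. The cartilage list (3 of 5 with rows) had a median of 0.71 (rescaled 0.34) and the endothelial list (6 of 6) one of 0.37, which turned to -0.003 when rescaled. The erythroid genes with rows had a median of 3.59, with *Hbb-y* listed at 0 in CKO ganglia. The part of these cell types in the values of the members was not tested.

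At E14.5 the same lists were closer to even. In wildtype and hypomorphic ganglia, the sums were 455 and 521 FPKM for neural crest and glia (median 0.12), 1409 and 1570 FPKM for mesenchyme (0.28), 14.3 and 18.1 FPKM for blood and macrophages (0.27), and 2857 and 2544 FPKM for sympathetic neurons (-0.11). Of the neural tube genes, 0 had a row. The medians were 0.50 for endothelium, 0.50 for erythroid genes, 0.54 for cartilage, -0.15 for skeletal muscle and 0.14 for kidney and mesonephros.

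**Figure D4:**
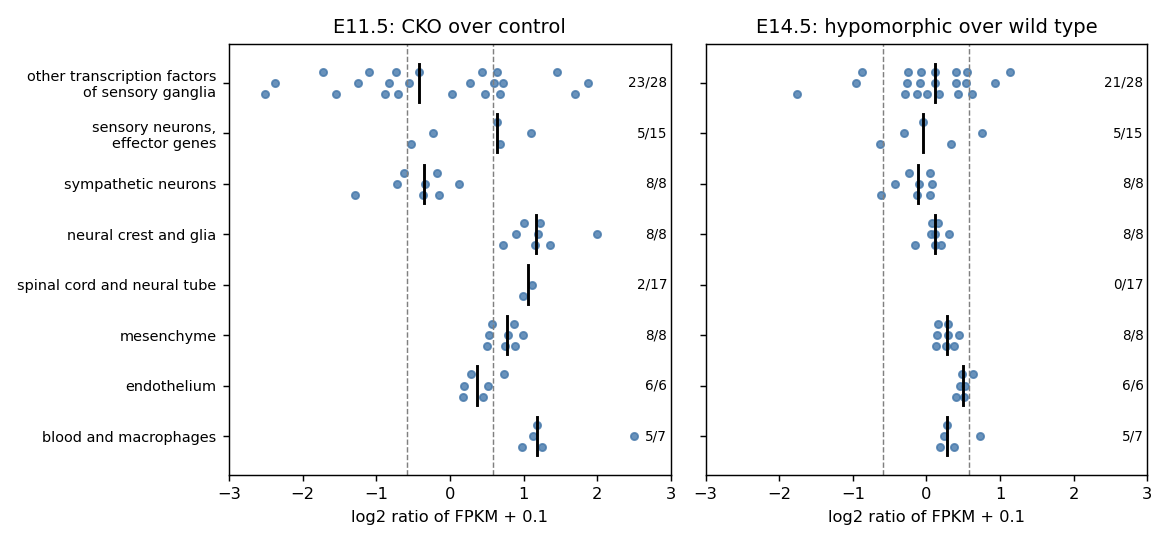
Log2 ratios of FPKM + 0.1, mutant over control, for the genes of 8 lists (points) with the list median (bar) at E11.5 (left) and E14.5 (right); dashed lines mark 1.5-fold, and the number of genes with a row out of the list's size stands at the right of each panel. At E11.5 the neural crest and glial genes as deposited lie wholly above the 1.5-fold line and the other sensory transcription factors spread to both sides, and at E14.5 most genes lie between the lines.

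*Eya1* was also the member used to look for like profiles, as the one with the largest change among members of at least 5 FPKM at E11.5 and at E14.5, where it was the only one at that level. Over the 4 combined values, the nearest of 11997 other genes by Euclidean distance on the log2 scale was *Ptbp2*, which encodes a neuronal splicing regulator, with a distance of 0.19. It had 113 and 48.5 FPKM at E11.5 and 98.2 and 105 FPKM at E14.5. *Nrp2*, a semaphorin receptor gene, followed with 93.7 and 49.1, then 88.5 and 109 FPKM (distance 0.34), and then *Hnrnpdl* (0.36), *Fam168b* (0.41) and *Slc38a4* (0.41). With 4 values per gene, likeness of this kind describes levels only.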

How the data were processed

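Sympathetic ganglia of E11.5 and E14.5 mouse embryos were profiled by polyA RNA-seq with paired-end reads. According to the study's methods, the authors aligned reads to mm9 with TopHat and estimated FPKM with cuffdiff, and the submitters' processing notes name TopHat 1.3.1, Cuffdiff 1.3.0 and the fly build dm3. The deposited FPKM tables combine the 2 libraries of a genotype and list genes of 1 FPKM or more in at least 1 genotype. Their other 2 columns per table, the authors' fold changes and p-values, were not used. Read numbers are not given, so precision is unknown.

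Here log2 ratios were computed on FPKM + 0.1, a pseudocount that understates changes of low genes, and genes at least 1.5-fold apart were counted beside the same share of all rows. No test across libraries was possible. The members and gene lists were chosen with earlier results of these data known. Named were the members, list genes of 5 FPKM or more or at least 1.5-fold apart, the most abundant markers, other list genes for context after their values were seen, and the 5 profiles nearest to *Eya1*. Values of some list genes are not reported here, though they count in their lists. Positions are from the GENCODE annotation of mm9. The alternatives were other pseudocounts (1 and 0.01), filters, scalings and fold thresholds. Only the log2 ratio and the 1.5-fold call were tested on simulated data. Those data held 2-fold changes in rows with a control value of 1 FPKM or more. Lower control values and the other steps were not tested in this way. Python 3.11.15, numpy 2.4.6, pandas 2.3.3 and matplotlib 3.10.9 were used.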

Additional observations from a re-analysis of the deposited data

Results flagged for a closer look

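Among the genes of the lists, 4 were at least 1.5-fold apart at both stages in opposite directions. *Tlx3*, a homeobox gene of sensory and cholinergic sympathetic neurons, had log2 ratios of -1.54 in CKO ganglia at E11.5 and 1.14 in hypomorphic ganglia at E14.5. *Shox2* had log2 ratios of -2.38 and 0.93. *Nhlh2*, a bHLH gene, had log2 ratios of 0.68 and -0.88, but its E11.5 ratio was 0.31, inside 1.5-fold, after rescaling to the same sum. *P2rx3* had 1.10 and -0.63, with no value above 1.88 FPKM and an E11.5 row only through its CKO value. These differences between stages were not tested, and the alleles, embryos and tables differ between the stages. None of the 9 members had opposite directions at that size.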

How the results depend on the processing

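Of the 6 members at E11.5, the 5 at least 1.5-fold apart became 1 when 5 FPKM in either genotype was required, 2 when 1 FPKM in both was required, and 3 at a 2-fold threshold. The 4 higher members became 0 and 1 under these filters. The filter of 1 FPKM in both genotypes removes *Neurog2*, *Neurod4* and *Pou4f1* by rule, because their control values were under 1 FPKM. The 1 lower member became 2 after rescaling to the same sum (*Prrxl1* joined and *Neurod1* left the higher ones), 0 at 2-fold, since *Eya1* lay just inside it, and 2 at 1.2-fold. At E14.5 the 1 member apart, *Neurod1*, became 0 under the 5 FPKM filter and at 2-fold, and 2 at 1.2-fold, where *Prrxl1* added 1 lower member to a count of 0. With a pseudocount of 1, the log2 ratio of *Neurog2* at E11.5 was 1.61 and that of *Neurod4* 0.72. The cartilage median at E14.5 became -0.53 under the 5 FPKM filter, which left *Col2a1* alone. No member past 1.5-fold changed direction. Other pseudocounts, filters and fold thresholds cannot reverse a ratio. *Neurog2*, *Neurod4* and *Pou4f1* were also listed only through a higher CKO value, so their unchanged direction says nothing about how stable it is. No paired analysis was possible because the columns combine the libraries of a genotype and carry no replicate number, and for the same reason no library could be left out. For neural tube genes the filters left no value.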
